A study of Drosophila melanogaster with 6 samples.

Results

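Of the 1938 sites in the deposited list of DNA regions enriched with an anti-GFP antibody from larvae expressing JIG-GFP, 403 (20.8%) lay at euchromatic promoters. A site was counted as a promoter site when its summit, the base with most fragments, lay within 1000 bp of the transcriptional start site (TSS) of any annotated gene, transposable elements left out. The mitochondrial genome and chromosomes 4 and Y were dropped, as were summits on 2L above 22 Mb, on 3L above 23 Mb, on 3R below 4.2 Mb and on X above 21 Mb, which removed 23 nuclear promoter sites. On 2R no limit was set, so that all of this arm is counted as euchromatin here. The 403 sites made up 23.9% of the 1688 euchromatic sites, and the other 1285 euchromatic sites lay farther from any TSS. Promoter windows cover 30.7 Mb, at 13.1 sites per Mb, and the share of euchromatin that they make up was not counted. Just beyond the windows the density was no lower, with 17.8 sites per Mb from 1250 to 1000 bp upstream and 15.8 from 1000 to 1250 bp downstream. The promoter sites had in range a TSS of 504 genes, or 2.92% of the 17241 euchromatic genes. Of the 13664 protein-coding genes, 399 (2.92%) had a site, and off X the share was 3.40% (394 of 11582). Promoters of genes with no summit in range are called unbound promoters below, which says only that the list held no site there.

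ChIP-seq had been done on whole larvae in the first 12 h of the last instar, with 3 biological replicates of JIG-GFP larvae and 3 of wild-type larvae, whose titles give YW and Wt. JIG-GFP is the Jig protein (CG14850) with GFP at its C-terminus, expressed from a transgene under the inducible UASt promoter, and the driver used for these larvae was not given in the sources used here. The 3 JIG-GFP samples were pooled against the 3 wild-type samples before sites were called, so that each site has 1 value, no spread between samples and no replicate check. The larvae of each sample were pooled. Where a stretch of DNA has more copies in JIG-GFP larvae than in wild-type larvae, its fold is raised as by binding, and the list cannot tell them apart. Whole larvae mix many tissues, and no value here belongs to a cell type.

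Promoters are the stretches around a TSS where general transcription factors and RNA polymerase assemble, and proteins bound there can raise or lower transcription. Jig was studied as a protein of both nuclei and mitochondria that interacts with CrebA, a basic leucine zipper transcription factor of the CREB family. Factors of that family bind words around an ACGT core, and CrebA is known in fly embryos for activating genes of the secretory pathway.

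Sequences are shown for the promoter sites of highest fold enrichment whose position is unique and whose summit lies outside UTRs, and for 4 more sites that hold CCACGTC, the CREB word of the study. They are given on the plus strand of release 6 of the genome (dm6, RefSeq copy). In the first set, 120 bases around the summit are printed with the 20 central bases in capitals.
CG32795, chrX:2790812-2790931: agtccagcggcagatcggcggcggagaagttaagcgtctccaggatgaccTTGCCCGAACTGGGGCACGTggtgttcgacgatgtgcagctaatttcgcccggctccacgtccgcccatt
CG13135, chr2L:10122485-10122604: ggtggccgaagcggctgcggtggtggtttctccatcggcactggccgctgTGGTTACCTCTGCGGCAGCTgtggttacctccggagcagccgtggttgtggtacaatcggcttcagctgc
CG31406, chr3R:10349227-10349346: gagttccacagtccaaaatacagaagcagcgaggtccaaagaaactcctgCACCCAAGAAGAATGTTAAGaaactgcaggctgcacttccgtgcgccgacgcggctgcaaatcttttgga
lncRNA:CR46103, chr3R:28303205-28303324: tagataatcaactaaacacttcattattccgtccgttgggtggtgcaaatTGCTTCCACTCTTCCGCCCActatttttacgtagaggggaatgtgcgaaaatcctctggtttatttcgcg
In the second set the word or its reverse complement is in capitals, with 40 bases on both sides.
CG4631, chr2L:16607516-16607602: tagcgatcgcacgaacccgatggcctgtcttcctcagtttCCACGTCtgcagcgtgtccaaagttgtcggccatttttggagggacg
CG31219, chr3R:19649923-19650009: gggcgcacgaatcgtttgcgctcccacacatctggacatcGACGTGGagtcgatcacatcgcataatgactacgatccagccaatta
CG3625, chr2L:286781-286867: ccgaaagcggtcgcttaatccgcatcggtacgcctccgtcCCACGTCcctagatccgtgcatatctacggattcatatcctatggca
CG17646, chr2L:1733409-1733495: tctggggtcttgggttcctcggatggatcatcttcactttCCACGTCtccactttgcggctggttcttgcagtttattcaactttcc
The first sequence lies in the coding exons of white (w), within range of a TSS of CG32795, and also holds CCACGTC outside its central bases. The second lies in the coding sequence of CG13135, a paralog of Jig. CCACGTC was present in the 300 bp around the summit of 12 of the 403 sites (2.98%), in 2.29% of the 92672 windows of 300 bp that tile unbound promoters, and in 2.91% of the 36939 such windows within the GC range of the sites (the 10th to 90th percentile, 43.3% to 54.9%). Among these 12 sites the folds ran between 1.31 and 1.68 apart from the site at CG32795.

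Most promoter sites were shallow. The pileup of JIG-GFP fragments, counted at the summit, had a median of 162 (133 to 1490), against a median wild-type background of 110 fragments (97.3 to 249). Their ratio, the fold enrichment as the authors deposited it, lay between 1.28 and 9.61 with a median of 1.45, and the middle 50% of sites lay between 1.38 and 1.54. A background of 97.3 fragments, here and below, is the genome-wide floor that MACS2 sets and not a value measured at the site. It was the background of 66 autosomal sites and 4 sites on X. The 95% Poisson interval of a fold, which covers counting error of the pileup only, had a median half-width of 15.6% of the value, and its lower end lay above 1 at all 403 sites, as the threshold on q makes likely. A fold of at least 2 was found at 17 sites (4.22%) and of at least 4 at 4. Among the other euchromatic sites the median fold was 1.46, and 84 (6.54%) reached a fold of 2. The stricter q of 1e-05 was passed by 88 promoter sites (21.8%) and by 330 of the other euchromatic sites (25.7%).

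**Figure D1:**
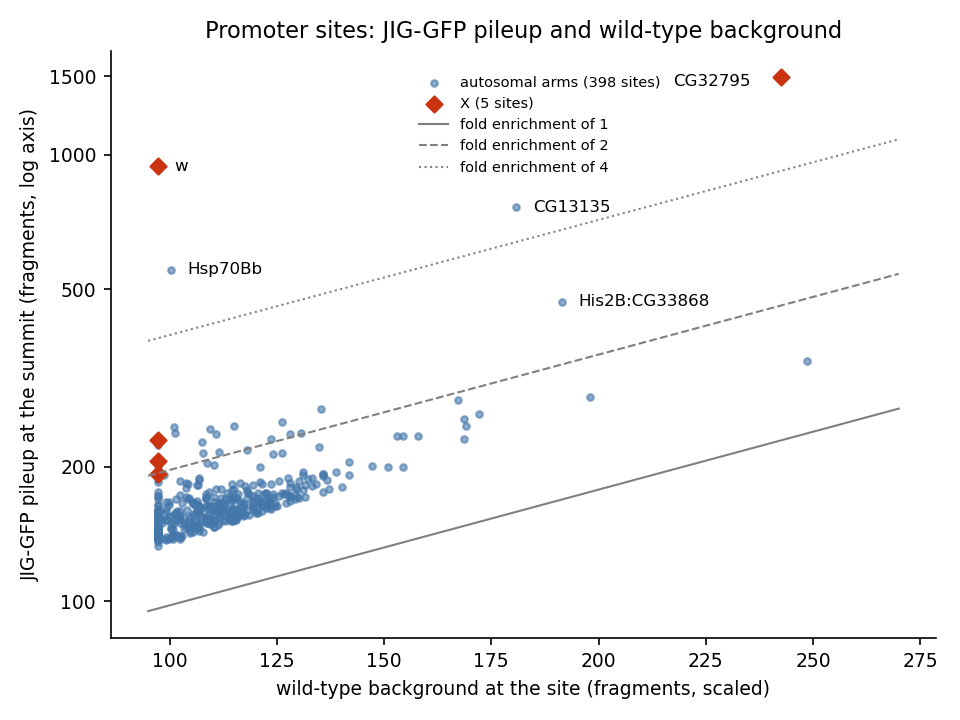
JIG-GFP pileup at the summit (fragments, log axis) against the wild-type background (fragments) for each of the 403 promoter sites, with X in red and lines at folds of 1, 2 and 4. Most points lie between the lines for 1 and 2, and w, CG32795, Hsp70Bb and CG13135 lie above the line for 4.

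The 4 sites with a fold of at least 4 stood apart from the rest. At w, which encodes an ABC transporter for eye pigment precursors, the site X:2795964-2796832 had a JIG-GFP pileup of 943 fragments against a background of 97.3, a fold of 9.61 (95% Poisson interval 9.01 to 10.2), with its summit in the 5′ UTR. The site in range of CG32795 (X:2789962-2793274) had a pileup of 1490 against 243, a fold of 6.12 (5.81 to 6.44). It overlaps the w gene (2790599 to 2796466), and its summit lies in w coding sequence 305 bp upstream of the CG32795 TSS. The site at Hsp70Bb (3R:12505749-12506106) had a pileup of 552 against 100.3, a fold of 5.46 (5.02 to 5.93), and the TSS of CR46154 was in range too. Hsp70Bb encodes the heat-inducible Hsp70 chaperone, and the 300 bp at this summit have 5 near-identical copies elsewhere in the genome, so the gene to which the fragments belong is uncertain. At CG13135 the site (2L:10122344-10122810) had a pileup of 763 against 181, a fold of 4.20 (3.91 to 4.51). JIG-GFP larvae carried a transgene that wild-type larvae lacked, and the sequence of its vector is not given in the sources used here. DNA copies and binding cannot be told apart at these 4 sites, and the part of DNA copies in their values was not tested.

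Below them the values formed a continuous range. The site with its summit in the 3′ UTR of His2B:CG33868 and with the TSS of His2A:CG33865 also in range, genes for core histones H2B and H2A in the tandem histone cluster, had 469 fragments against 191, a fold of 2.44, and its window has 23 near-identical copies. Jon99Fii, of the Jonah family of digestive serine proteases, had 246 against 101, a fold of 2.42, with 3 copies. CG31406 and the forkhead gene jumu shared a site with 233 against 97.3, a fold of 2.38 (2.09 to 2.71), which had no copy. CG12480 on X followed at 2.35 with 2 copies. Lcp65Ab1, a larval cuticle protein gene, had 238 against 101 at a summit 110 bp upstream of its TSS, a fold of 2.34, and its window has 1 copy. stai, the stathmin gene that acts on microtubules, had a site over its TSS with 243 against 109, a fold of 2.21 (1.94 to 2.51). The other sites among the 15 of highest fold were those of lncRNA:CR44861 (2.29), lncRNA:CR46103 (2.14), lncRNA:CR44862 (2.13), CG2233 (2.11) and CG6293 (2.10). Of the rest, CG12947 (1.98), the pair asRNA:CR46453 and lncRNA:CR46455 (1.99), CG3927 (2.10), CG12519 (2.05) and the pair CG13170 and CG43315 (1.98) had the lowest q.

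Near-identical copies were more common among the strong sites. A copy elsewhere with at least 90% identity over at least 150 bases was found for 7 of the 17 sites with a fold of at least 2 (41.2%) and for 11 of the other 386 (2.85%), against 3.08% of the windows of unbound promoters. Without the 18 sites that have a copy, the median fold was 1.44 and 10 of 385 sites reached a fold of 2. How the authors' alignment placed reads with several matches is not given in the sources used here. An annotated transposon shared bases with 1 promoter site.

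Some promoter sites lay alone and some in runs. No other site of the list lay within 10000 bp of 233 of them (57.8%), and 30 belonged to 16 runs of at least 4 sites joined at that distance. The share that would lie alone with sites placed at random was not counted. Of the 88 sites with a q below 1e-05, 42.0% lay alone, against 62.2% of the other 315. The longest run held 23 sites, 6 of them promoter sites, between 15413395 and 15470221 on 2L, with lncRNA:CR44861, lncRNA:CR44862, lncRNA:CR44863, lncRNA:CR45353 and CG44869 as the genes in range. Its 15 central sites, grouped after their values were seen, lay between 15428184 and 15458020 on both sides of an annotated transposon of 7412 bp, which held no site. Their pileups were 176 to 237 against backgrounds of 97.3 to 134, with folds of 1.70 to 2.29, while the 8 flanking sites had pileups of 140 to 175 and folds of 1.33 to 1.56. In this stretch the higher values extended over 29837 bp. Leaving out its 6 promoter sites moved the median fold of the promoter sites to 1.44. Shorter runs with a high share of their span inside sites lay at CG8840 (4 sites, 73.1% of 5012 bp) and at CG12134, asRNA:CR46453 and lncRNA:CR46455 (4 sites, 59.1% of 7082 bp).

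Summits lay mostly downstream of the TSS. The summit was at or downstream of the nearest TSS in 276 sites (68.5%), where 56.9% of the promoter bases lie, and upstream in 127 (31.5%), where 43.1% of the bases lie. Summits within 100 bp of a TSS numbered 45 (11.2%), against 13.9% of the bases, and 96 sites (23.8%) covered a TSS. Within the window the density was lowest between 500 and 250 bp upstream, with 24 sites and 7.13 sites per Mb. Between 250 and 500 bp downstream it was 17.9 (81 sites) and in the next 250 bp about the same (74 sites), against 13.1 over all promoter bases. Beyond the window it was of the same size, with 17.8 sites per Mb between 1250 and 1000 bp upstream and 15.8 between 1000 and 1250 bp downstream. A maximum at the TSS itself was not seen. Of the 88 sites with a q below 1e-05, 19.3% were upstream, against 34.9% of the other 315.

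**Figure D2:**
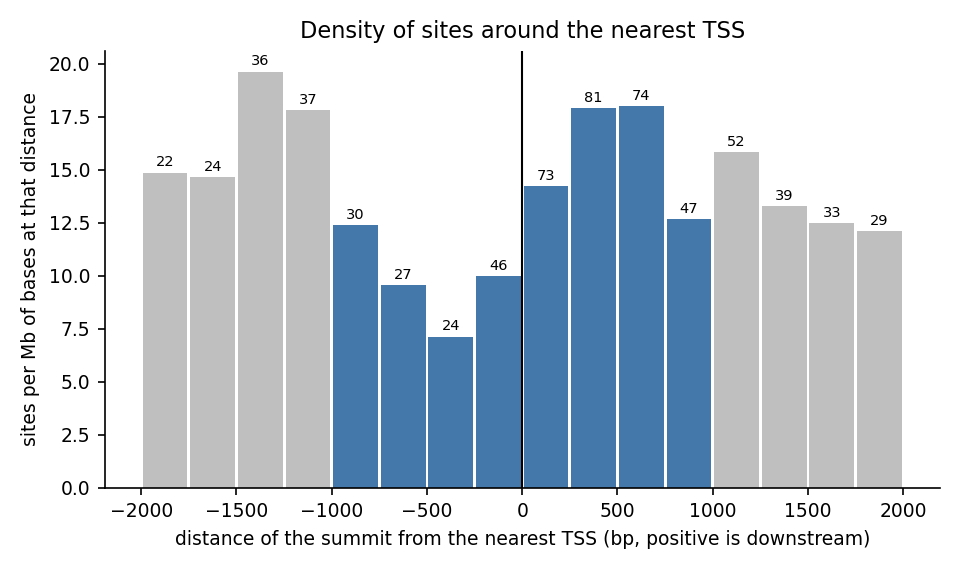
Sites per Mb of bases at each distance from the nearest TSS, in steps of 250 bp, with promoter sites in blue, sites outside the window in grey and the number of sites above each bar. The bars between 750 bp upstream and the TSS are the lowest and those 250 to 750 bp downstream are among the highest.

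Among sites with a q below 1e-05, the summits closest to a TSS were at the site of CG12519 (8 bp downstream of a neighbouring TSS), CG6933 (10 bp downstream, fold 1.76), stai (23 bp downstream), CG16926 (23 bp downstream, fold 1.57) and CG31157 (24 bp downstream, fold 1.56). Next came the cuticle pseudogene Lcp65APsi, w, Lcp65Ab1, the myosuppressin receptor gene MsR2 (120 bp upstream, fold 1.52) and Hsp70Bb. At the edge of the window, jigr1, lncRNA:CR45677 and Gpat4 were just inside at 996, 997 and 1000 bp, with folds of 1.38, 1.40 and 1.64. The sites at CG33286, Reck and Lar were just outside at 1010, 1016 and 1018 bp, with folds of 1.53, 1.42 and 1.59.

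Coding sequence held more than its share of promoter summits. The summit lay in coding sequence at 220 sites (54.6%), which makes up 27.7% of promoter bases, or 25.9 sites per Mb. Exons of noncoding genes held 31 sites (19.0 per Mb). The 5′ UTRs held 27 sites (7.57 per Mb), introns 60 (7.13 per Mb), intergenic bases 61 (8.76 per Mb) and 3′ UTRs 4 (2.45 per Mb). Median folds differed little between the larger groups, with 1.45 in coding sequence, 1.45 in 5′ UTRs, 1.46 in introns and 1.40 in intergenic bases. Of the other euchromatic sites, 16.0% lay in coding sequence, 42.7% in introns and 38.4% between genes. Those positions are fixed in part by the window, since coding sequence near a TSS is common and far intergenic sequence is not counted.

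**Figure D3:**
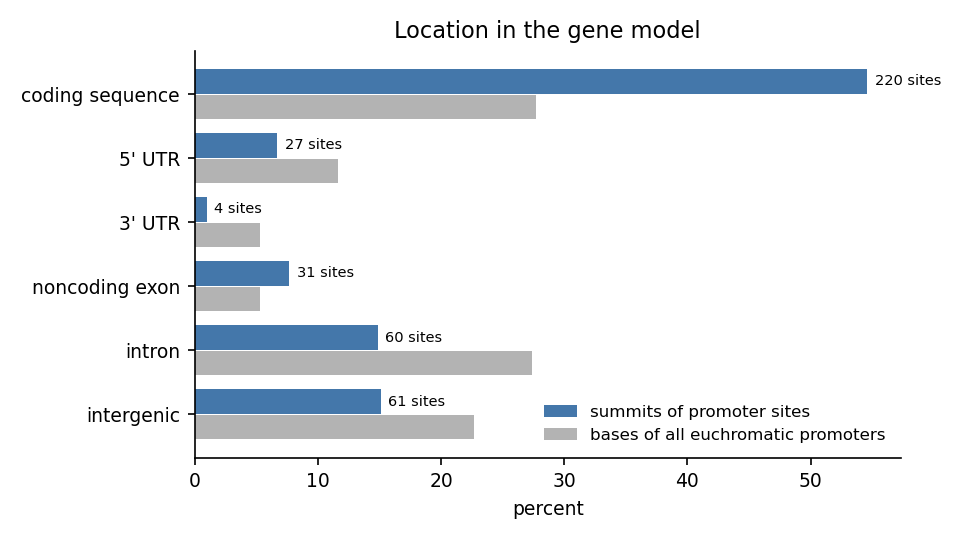
Percent of the 403 promoter summits (blue) and of all bases within 1000 bp of a euchromatic TSS (grey) in each part of the gene model, with the number of sites beside each bar. Coding sequence holds 54.6% of the summits and 27.7% of the bases.

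Promoter sites occupied a narrow range of base composition. The GC content of the 300 bp around the summit had a median of 48.7% (10th to 90th percentile 43.3% to 54.9%), against 43.3% (31.3% to 54.7%) over positions of all euchromatic promoters and 46.7% at the other euchromatic sites. Positions with a GC content below 35% make up 19.5% of promoter bases and held 1 site, and those from 35% to 40% make up 17.3% and held 3. The density was highest in the band from 45% to 50%, at 30.9 sites per Mb, and was 24.4 from 50% to 55% and 13.4 above. In the band from 45% to 50% coding sequence had 52.7 sites per Mb and the remaining promoter bases 20.6, so that the difference between them was also present within a GC band. Above 55% the order was turned round, with 28 sites and 11.2 per Mb in coding sequence, below the 13.4 of the whole band. Median folds changed little over the bands from 40% upward (1.47 in the band from 40% to 45% and 1.42 above 55%), while the median background was 102 fragments in the first and 122 in the last of them. Whether recovery of DNA in the libraries varied with GC content was not tested.

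**Figure D4:**
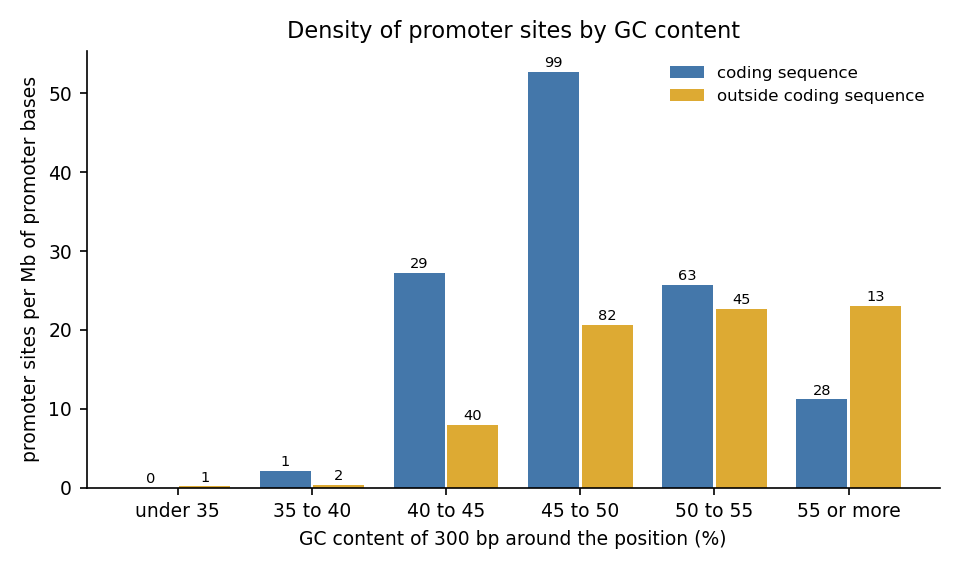
Promoter sites per Mb of promoter bases by GC content of the surrounding 300 bp, for summits in coding sequence (blue) and outside it (yellow), with the number of sites above each bar. Almost no site lies below 40%, and coding sequence from 45% to 50% has the highest density.

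Words of known promoter elements were searched as exact letters on both strands of the 300 bp around the summit, and a match is not a bound site. Summits lay a median of 444 bp from a TSS. The windows of unbound promoters tile whole promoters and were not matched to the summits for distance to a TSS. The shares therefore compare windows, and a word absent from the site windows may be present elsewhere in the same promoters. TATCGATA, the DNA replication-related element, and GGTCACACT, the core of the M1BP word, were in none of the sites, in 1.64% and 0.957% of the windows of unbound promoters, and in 0.850% and 0.696% of those in the GC range of the sites. The full cAMP response element TGACGTCA was in none of the sites and in 0.446% of the windows, and TGACGT, which is part of it, in 6.45% and 6.49%. The E box CACGTG was in 6.45% of the sites, against 3.90% of all windows and 4.74% of those in the GC range. TATAAA was in 17.1% of the sites, against 30.2% of all windows and 16.4% in the GC range, and the initiator letters TCAGTT were in 19.6%, against 19.5% and 19.1%. GAGAGAG, a word bound by Trithorax-like, was in 2.73% of the sites, against 4.47% and 5.87%. Among 2078 words of 6 letters that occur in the sites and are present in at least 2% of the windows in the GC range, the share in sites over the share in windows ran between 0.327 (TCTAGA, in 0.993% of the sites and 3.03% of the windows) and 1.64 (ACGCGT, in 5.96% and 3.64%). The next lowest ratio was 0.50 (GTTAGA) and the next highest 1.57 (AGGTAT).

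The chromosome arms differed mainly in X. Of genes with a TSS on 2R, 3.92% had a promoter site (143 of 3649), on 2L 3.45% (119 of 3447), on 3L 3.16% (108 of 3415), on 3R 3.07% (129 of 4202) and on X 0.198% (5 of 2528). The 5 sites on X, at w, CG32795, CG12480, CG2233 and CG12725, had pileups of 193 to 1490 and a median fold of 2.35, and the 398 autosomal sites had pileups of 133 to 763 and a median fold of 1.44. The part of DNA copies in the X sites at w and CG32795 was not tested. The wild-type background of 4 of the 5 X sites was at the genome-wide floor of 97.3 fragments, below which MACS2 sets no background, against 66 of the 398 autosomal sites (16.6%). The sex of the larvae, and with it the number of X copies per sample, is not given in the sources used here, and its part in the lower share was not tested.

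Gene types had shares near the 2.92% of all genes. Protein-coding genes had a promoter site at 2.92%, ncRNA genes at 2.99% (80 of 2679), tRNA genes at 3.48% (10 of 287), snoRNA genes at 2.30% (6 of 261) and pseudogenes at 4.05% (9 of 222). No site was in range of the 96 rRNA or 32 snRNA genes. Bound protein-coding genes had a median length of 1871 bp, against 2156 bp for those with no site, and a median of 3 exons in both. Genes with 4 or more TSSs had a site in range more often (5.36%, 23 of 429) than genes with 1 TSS (2.83%, 285 of 10068). Genes with a site per Mb of promoter window numbered 7.95 and 16.8. A gene counts once there however many sites or TSSs it has, so these are not densities of sites and are lowered by longer windows. Of the 5988 genes known only by a CG number, 185 (3.09%) had a site.

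Each site mostly had a single gene in range. There was 1 gene at 305 sites, 2 at 82 and 3 or 4 at 16. The sites with most genes were those at phol, the Polycomb-group gene pho-like, with CG3437, CG3552 and asRNA:CR45873 (fold 1.66), at ATP8A with 3 tRNA genes for isoleucine and leucine (1.42), at the snoRNA genes snoRNA:Or-ACA6, snoRNA:Or-ACA7 and snoRNA:Or-CD13 with scaRNA:MeU1b-A234 (1.40), at the histone genes above, and at CG12209, CG12914 and Csgalnact (1.70). Conversely, 16 genes had 2 promoter sites and none had more. CG13170 had folds of 1.86 and 1.98, ATP8A, a phospholipid flippase gene, 1.76 and 1.42, the cytochrome P450 gene Cyp9b1 1.61 and 1.72, the glutathione S-transferase gene GstD10 1.64 and 1.45, and the centrosomal gene tacc 1.49 and 1.42. The neighbours CG42811, CG33341 and CG42812 shared 3 sites with folds of 1.87, 1.35 and 1.51.

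Gene classes differed in the share of members with a promoter site, beside 2.92% over all euchromatic genes. In 27 lists of genes, 13 had a larger share and 14 a smaller one, and 6 lay above 2 times the overall share. No test of a list was made, and most lists had 5 members or fewer with a site.

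**Figure D5:**
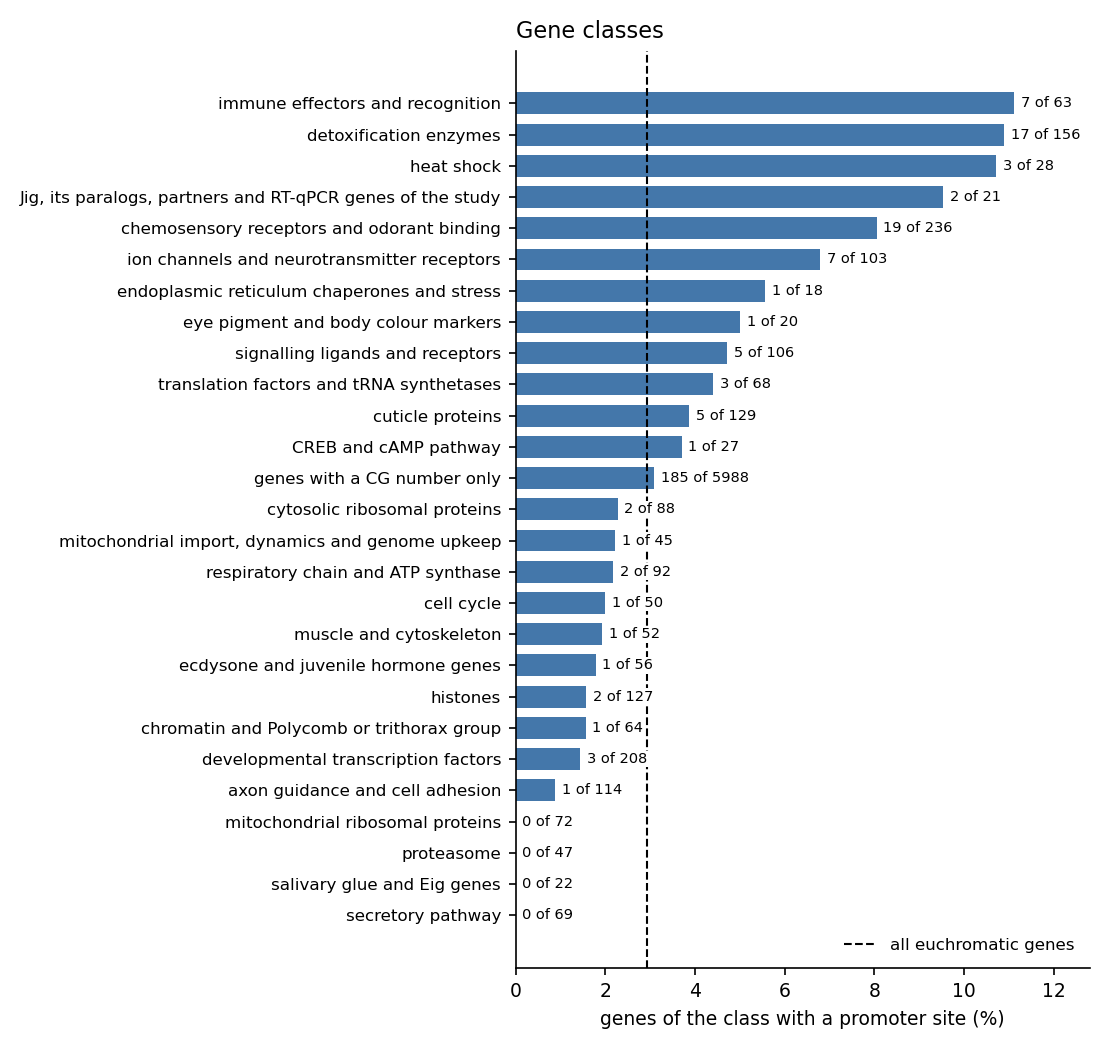
Percent of the genes of each class with a promoter site and, beside each bar, the genes with a site of all genes in the class. The dashed line is the share over all euchromatic genes, 2.92%, and immune effectors, detoxification enzymes, heat shock and chemosensory genes lie farthest above it among classes not drawn from the study.

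Detoxification enzymes, the cytochrome P450s, glutathione S-transferases and UDP-glycosyltransferases that modify xenobiotics and hormones, had a site at 17 of 156 genes (10.9%). The genes of highest fold were Cyp9b1 (JIG-GFP pileup 214 against 124, fold 1.72), Ugt317A1 (215 against 126, 1.70), GstD10 (164 against 99.8, 1.64), GstE5 and GstE6, which share a site (154 against 97.3, 1.58), and Cyp6a20 (166 against 105, 1.57). Over the 17 genes folds ran between 1.38 and 1.72, with a median of 1.49. Cyp genes had a site at 8 of 86 and Ugt genes at 4 of 35. The promoter windows of the class held 17 sites, or 53.7 per Mb. At the rates of all euchromatic promoters for the same location in the gene model and the same GC content, they would hold 4.96. None of these genes lost its site when sites with a near-identical copy were left out. At a q below 1e-05, 4 genes (2.56%) were left, beside 0.621% of all genes, and within 500 bp of a TSS 5 genes (3.21%), beside 1.43%.

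Immune effectors and recognition genes had a site at 7 of 63 (11.1%). The 6 members of highest fold were the peptidoglycan recognition genes PGRP-LA (159 against 97.3, fold 1.63), PGRP-SC1a (153 against 98.1, 1.55) and PGRP-LB (165 against 117, 1.40), the antimicrobial peptide gene Def, for defensin (189 against 128, 1.48), and BomBc2 and BomS4 of the bomanin family, which share a site (200 against 151, 1.32). Their windows held 6 sites, where location and GC content at the overall rates would give 1.20. PGRP-LA alone had a q below 1e-05.

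Chemosensory genes had a site at 19 of 236 (8.05%), through 15 sites. Gustatory receptors accounted for 6 of 60 genes, ionotropic receptors for 6 of 64, odorant binding proteins for 4 of 51 and odorant receptors for 3 of 60. The highest folds were those of Or69a (158 against 97.3, fold 1.62), Ir52b (153 against 102, 1.49), Ir47b (143 against 97.3, 1.47), Gr93b and Gr93c, which share a site (161 against 112, 1.43), and Obp50d (149 against 105, 1.41). The class median was 1.36, below the 1.44 over all genes with a site. Location and GC content would give 8.49 sites. Only Or69a had a q below 1e-05 (0.424% of the class), a share below the 0.621% of all genes at that q.

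Ion channels and neurotransmitter receptors had a site at 7 of 103 (6.80%). The members of highest fold were the epithelial sodium channel genes ppk17 (142 against 97.3, fold 1.46) and ppk25 (141 against 101, 1.40), the dopamine receptor Dop1R2 (174 against 122, 1.42), the octopamine receptors Octbeta3R (1.40) and Oct-TyrR (1.37), and the glutamate receptor GluRIA (175 against 127, 1.37). Their windows would hold 3.74 sites at the overall rates. None had a q below 1e-05.

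Heat shock genes had a site at 3 of 28 (10.7%), at Hsp70Bb, at the small heat shock gene Hsp23 (165 against 111, fold 1.48) and at the Hsp90 gene Hsp83, 987 bp upstream of its TSS (146 against 106, 1.37). The Hsp83 site is shared with CG14965, whose TSS is nearer to the summit, at 509 bp. With only the gene of the nearest TSS counted, the heat shock share was 7.14%. The part of DNA copies in the Hsp70Bb site was not tested. Cuticle proteins had a site at 5 of 129 (3.88%), and 4 of these lie in the Lcp65A cluster on 3L: Lcp65Ab1, Cpr65Ax1 and Lcp65APsi, which share a site (184 against 104, fold 1.76), and Lcp65Af (168 against 106, 1.57). The fifth was Cpr47Ec (1.34). Without sites that have a near-identical copy, the shares were 7.14% for heat shock and 1.55% for cuticle protein genes. Signalling ligands and receptors had a site at 5 of 106 (4.72%): the FGF ligand pyr (160 against 97.3, fold 1.64), the BMP-binding protein gene cv-2 (1.52), the insulin-like peptide gene Ilp3 (1.46), the Dpp receptor tkv (1.44) and the Wnt ligand wg (1.35). Translation factors and tRNA synthetases had a site at 3 of 68 (4.41%), at eIF4E4, CysRS and eIF3d1 with folds of 1.53, 1.49 and 1.32.

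Lists close to the study's questions had 2 members or fewer with a site, on both sides of the overall share. Of the CREB and cAMP pathway, 1 of 27 genes (3.70%) had a site, the adenylyl cyclase gene Ac3 (151 against 114, fold 1.32). Of the secretory pathway, 0 of 69 genes had a site, where location and GC content would give 2.18, and of endoplasmic reticulum chaperones and stress genes 1 of 18 (5.56%), sip3 (1.41). Respiratory chain and ATP synthase genes had a site at 2 of 92 (2.17%). At the cytochrome oxidase assembly gene Surf1 (231 against 169, fold 1.37) the summit, at 6959323, lay 977 bp downstream of the TSS. The gene spans 6958346 to 6959586, so this summit is nearer to its 3′ end than to its TSS. The other was the complex III core gene UQCR-C1 (157 against 114, 1.37), in a site shared with the cyclin gene CycC. Mitochondrial import, dynamics and genome upkeep had 1 of 45 (2.22%), the inner membrane translocase gene Tim17a1, in the site it shares with GstD10. Mitochondrial ribosomal proteins had 0 of 72, where 2.32 would be given by location and GC content. Of 21 euchromatic genes in the list of Jig, its paralogs, the interaction partners the study names and genes for which it gives RT-qPCR primers, 2 had a site (9.52%), the paralog CG13135 and Surf1, a gene of the last kind. Jig itself had none.

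Developmental transcription factors and axon guidance genes lay below the overall share. Developmental transcription factors had a site at 3 of 208 (1.44%), the homeotic gene Scr (146 against 100.3, fold 1.45) and the LIM-homeodomain genes ap (1.38) and Awh (1.30), where location and GC content would give 7.24 sites. Axon guidance and cell adhesion had 1 of 114 (0.877%), the neuroligin gene Nlg3 (1.51), where location and GC content would give 2.90 sites. The other lists below the overall share had 2 genes or fewer with a site, and 1 gene more or less would put several of them on the other side of the overall share. Cytosolic ribosomal proteins had 2 of 88 (2.27%), RpS24 (234 against 153, fold 1.53) and RpS29 (185 against 121, 1.52). Their summits lay 945 bp upstream and 602 bp downstream of the TSS. Chromatin genes had 1 of 64 (1.56%, phol), muscle and cytoskeleton genes 1 of 52 (1.92%, Msp300, fold 1.46) and cell cycle genes 1 of 50 (2%, CycC). Ecdysone and juvenile hormone genes had 1 of 56 (1.79%, Eip63F-1, fold 1.37) and histones 2 of 127 (1.57%). The histone list took every symbol that opens with His, so it can hold genes that are not histones, such as the channel gene HisCl1. Location and GC content would give 2.29 sites for cytosolic ribosomal proteins, where 2 were found. For muscle and cytoskeleton genes they would give 1.85 and for cell cycle genes 1.72, where 1 was found in each. For histones they would give 2.46, for ecdysone and juvenile hormone genes 2.21 and for chromatin genes 2.06, again with 1 found in each. Proteasome genes (0 of 47) and salivary glue and Eig genes (0 of 22) had none, where location and GC content would give 1.61 and 0.303 sites.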

How the data were processed

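ChIP-seq with an anti-GFP antibody was done on 3 JIG-GFP and 3 wild-type samples of whole larvae, grouped by the sample labels. The authors mapped paired-end reads to dm6 in Galaxy (aligner and read filters are not given in the sources used here) and called peaks on the pooled samples with MACS2, version 2.1.1.20160309 by the submitters' processing notes, with at most 1 fragment per position, a q cutoff of 0.05 and background windows of 1000 and 10000 bp. After that filter 42358424 JIG-GFP and 41819151 wild-type fragments were left. The depth of single samples is unknown. The deposited pileup is a signal, the fragments of the JIG-GFP pool that cover a summit. The fold enrichment deposited by the authors is a ratio of pileup to background. That background is the local wild-type value or, where this is lower, the genome-wide floor. The −log10 q-values were used as deposited, and the authors' −log10 p-values were not used.

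The background was recovered from pileup and fold, with 1 added to pileup and background as MACS2 does. Sites were placed on Ensembl release 115 genes of the same assembly with Python 3.11.15 and pandas 2.3.3, leaving out mature-miRNA duplicates. Exact Poisson 95% intervals were taken on the pileup with the background held fixed (scipy 1.17.1). Near-identical copies were searched with BLAST 2.17.0. Of 933 list entries, 10 matched no gene. Functions were tested on simulated data. No test between groups was made, because each site has 1 value. The members and gene lists were chosen with earlier results of these data known. Genes were named by a rule: the sites of highest fold, of lowest q, closest to a TSS, at the window edge or with most genes, genes with 2 sites, and up to 6 members of each list. Alternatives were the distance, the TSSs and position used, stricter q and fold, transposons left out, merged sites and other windows. Leaving out copies, X or the long run on 2L, motif shares within the GC range, and site numbers from location and GC content were added after the data were seen.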

Additional observations from a re-analysis of the deposited data

How the results depend on the processing

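No value has a spread between samples, so every statement rests on 1 pooled call, and the counting interval of a fold, on the pileup alone, had a median half-width of 15.6% of the value. Promoter sites numbered 224 within 500 bp, 88 at a q below 1e-05 and 17 at a fold of at least 2, against 403, and genes with a site 246, 107 and 22, against 504. At a q below 1e-05 the share of genes with a site was 0.424% for chemosensory genes, 2.56% for detoxification enzymes, 1.59% for immune genes and 0% for ion channels and neurotransmitter receptors, beside 0.621% of all genes. Within 500 bp it was 3.39% for chemosensory genes and 3.21% for detoxification enzymes, beside 1.43% of all genes. These settings leave fewer sites, and no further cause was tested. The other 39 values of these results stayed within 1.5 times for counts, within the counting interval for shares and for the median fold, within the SD over sites for GC content, and on the same side of all genes for sites per Mb. Over the other lists and motifs, 28 values changed by more than that and 163 did not, 11 of the 28 at a q below 1e-05. The median fold was between 1.44 and 1.46 under every setting tried for it, which did not include the stricter q and fold. At the 88 sites with a q below 1e-05 it was 1.70, and at the other 315 it was 1.41. The CREB and cAMP list, above the overall share of genes, was below the overall density of sites (8.48 against 13.1 per Mb). No paired analysis was possible because the deposited list has 1 value per site and none per sample.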

Other observations

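Gene families, some of them parts of the lists above, were counted by the letters that open their symbols, for all 46 openings shared by at least 20 euchromatic genes, after the data were seen. Orphan snoRNA genes (snoRNA:Or) had a promoter site at 3 of 24 genes (12.5%), all through the site described above, and serpins (Spn), inhibitors of serine proteases, at 3 of 28 (10.7%). Genes of microRNA hairpins (mir) had a site at 7 of 250 (2.80%), lncRNA genes with a CR number at 59 of 1835 (3.22%) and antisense RNA genes with a CR number at 12 of 480 (2.50%), all near the overall 2.92%. Among 19 openings with no gene at a site were RpL (46 genes), mRpL (47), ND (37), Vps (26), Osi (25) and snoRNA:Me (72). At 2.92%, the share of all euchromatic genes, families of these sizes would hold few genes with a site, and no family was tested. RpS, the other opening of ribosomal protein genes of the cytosol, had a site at 2 of 37 genes (5.41%).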
